A study of Mus musculus with 34 samples.

Results

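Ribosomal protein genes and translation factor genes were followed in mouse liver with and without chronic heat stress. The members are all genes whose annotated symbol begins with Rpl or Rps and a digit, with Rplp, or with Eef or Eif, together with Rpsa and Fau; the S6 kinases (Rps6k) were left out. The rule gave 59 of the 1019 named genes on the array: 30 proteins of the 60S subunit, 22 of the 40S subunit and 7 factors. Each was read by 1 spot. The annotation of the mouse genome used here holds 56, 36 and 72 protein-coding symbols of these 3 kinds, so the factors in particular are a small sample. Rps4x-ps9, counted among the 40S genes, is printed as the array annotation gives it and has no matching symbol in that mouse annotation. Rps3a is a synonym of the mouse gene Rps3a1.

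Liver RNA of 13 mice was hybridised on 34 arrays against a universal mouse reference RNA, with the mouse in Cy5 on 21 arrays and in Cy3 on 13. The thermoneutral group (TN, 7 mice, 20 arrays) was fed an endophyte-free fescue diet (E-), which is fescue grass without its toxin-making fungus. The chronic heat stress group (HS, 6 mice, 14 arrays) was heated for 2 weeks. The temperature, 34 °C, stands on the labels of 8 HS arrays, an age at start of 27 days on 7, and an age at end of 40 days on 5. The TN labels give no temperature or age and the HS labels no diet, so that diet, age and any hybridisation batch cannot be told apart from heat. The labels call F222 and M242 ICR mice and name no other strain. The oligonucleotides were designed on rat sequence, and how well each matches the mouse RNA was not tested.

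A ribosome is built from ribosomal RNA and a large and a small subunit set of proteins, most of them present in equal copy number, and growing cells spend much of their transcription on it. Ribosomal protein messengers, with those of Eef1a1 and Eef2, start with a short run of pyrimidines, the TOP element, through which the mTOR kinase pathway turns their translation up or down. The liver makes large amounts of secreted protein, and stressed cells commonly lower translation by phosphorylating initiation factor eIF2.

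Annotated start sites were searched for such runs. The RefSeq (GRCm38.p6) start windows used here cover 47 members, of which 41 are ribosomal protein genes with 47 annotated starts and 6 are factors with 8. The other members, Rps14 among them, are not in these counts. The windows below, read 5′ to 3′ on the gene's strand, hold the 15 bases before and the 15 bases from the start, with the longest run of at least 8 C or T in capitals. They are those of members farthest below the reference, of the members near it, and of both elongation factors.
Rpl31, chr1:39367836-39367865 (+): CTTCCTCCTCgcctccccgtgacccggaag
Rpl13a, chr7:45128731-45128760 (−): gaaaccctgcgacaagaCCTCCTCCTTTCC
Rpsa, chr9:120127751-120127780 (+): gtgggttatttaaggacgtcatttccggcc
Rps7, chr12:28635939-28635968 (−): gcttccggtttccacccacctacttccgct
Fau, chr19:6057932-6057961 (+): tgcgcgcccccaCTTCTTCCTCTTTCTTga
Rps26, chr10:128626492-128626521 (−): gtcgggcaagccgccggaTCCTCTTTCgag
Rps3a (as Rps3a1), chr3:86142654-86142683 (−): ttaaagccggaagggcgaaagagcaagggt
Rpl10a, chr17:28328456-28328485 (+): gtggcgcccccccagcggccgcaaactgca
Eef1a1, chr9:78481710-78481739 (−): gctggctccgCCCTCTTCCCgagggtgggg
Eef2, chr10:81176616-81176645 (+): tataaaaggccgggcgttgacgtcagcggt

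A run of at least 8 C or T on the gene's strand was present in 20 of the 47 annotated starts of ribosomal proteins (42.6%), against 3943 of all 32851 starts in the table (12%). By class these were 12 of 24 starts of 60S genes, 8 of 23 of 40S genes and 1 of 8 of factors. The same run on the opposite strand stood at 1 of the 47 ribosomal starts (2.13%) and at 13.2% of all starts. Among the longest were those of Rpl7a (21 bases) and Rpl27a (19 bases), 60S genes whose values are given further on. CCGGAAG, the core that ETS-family factors read, was present on either strand of the full window of 300 bases in 17 of 47 ribosomal starts (36.2%) and in 8.86% of all starts. Members near the reference and members far below it both include starts with and without a pyrimidine run. These are matches of letters near annotated starts, which can miss the start used in liver; the run of Rpl31 lies wholly before the annotated start, and Eef2 has none in this window.

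All values that follow are log2 ratios of liver over reference, centred on the median of each array, so that 0 is the array's middle and not an equal number of molecules. Ribosomal protein RNA was far lower in liver than in the reference. In the limma fit over 1856 features, 51 of the 59 members were called lower (adjusted p under 0.05) and 0 higher: 28 of 30 for 60S, 19 of 22 for 40S and 4 of 7 factors. Over all features, which are the 1019 named genes and 837 spots tied to no single gene, 24.4% were called lower and 24.1% higher. A drop of more than 2-fold that was also called was found for 27 60S genes, 17 40S genes and 2 factors, 46 members in all, against 9.48% of all features. In every one of the 13 mice, 47 members lay below 0, while 13.6% of all features did. The median level was −1.89 over 60S genes (3.70-fold below the array median) and −1.64 over 40S genes (3.12-fold), with −0.37 over the factors and −0.03 over all features. Less of these messengers in liver and more of them in the reference cannot be told apart, since the reference was not measured alone. The standard errors and p-values of levels rest on the spread between mice. They leave out any error of the shared reference RNA and of the oligonucleotide of a gene.

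**Figure D1:**
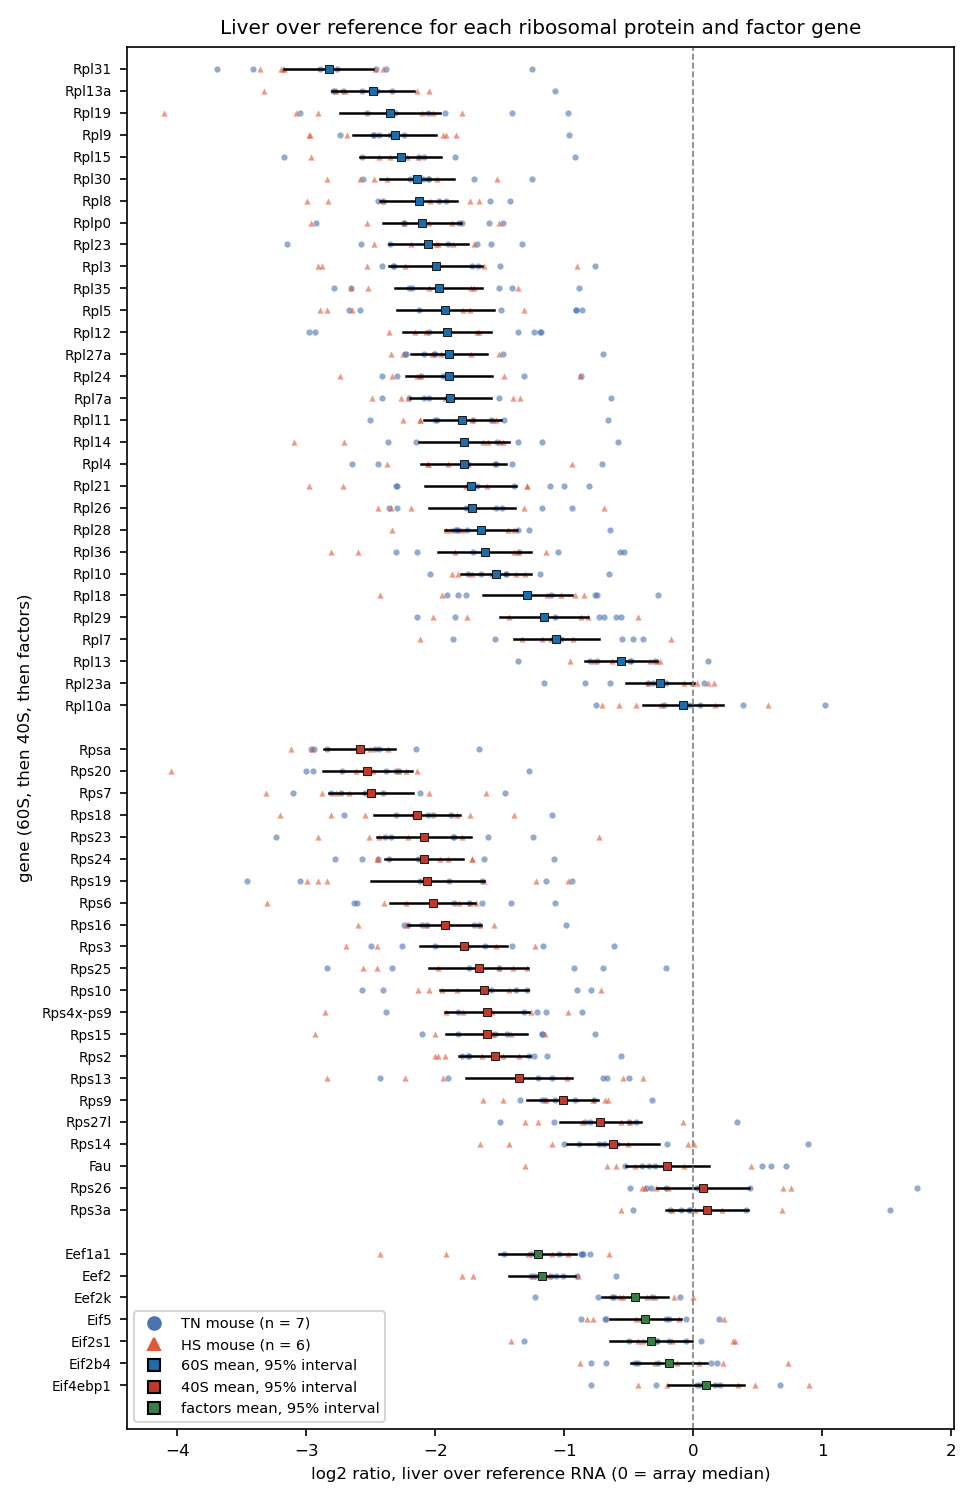
Log2 ratio of liver over reference (x axis, 0 is the array median) for each of the 59 members (y axis, ordered within class), with 1 point per mouse (circles TN, n = 7; triangles HS, n = 6), and squares with bars for the mean and its 95% interval. Most 60S and 40S means lie between −1 and −3, while Rpl10a, Rpl23a, Fau, Rps26, Rps3a and most factors sit near 0.

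The lowest 60S gene was Rpl31, a protein of the rim of the peptide exit tunnel. Its ratio ran from −3.69 through a median of −2.76 to −1.25 in TN mice and from −3.36 through −3.18 to −2.40 in HS mice. The mean of −2.83 (standard error 0.17, n = 13 mice, limma adjusted p = 9.12e-13) is 7.10-fold below the array median. The groups overlapped, and the highest TN value, that of M211, stood well above the rest.

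Rpl13a, a 60S protein that also serves in a complex silencing inflammatory messengers, ranged from −2.80 through −2.57 to −1.07 in TN and from −3.33 through −2.58 to −2.05 in HS. Its mean was −2.48 (standard error 0.15, 5.58-fold below, adjusted p = 1.76e-12). Rpl19, which reaches across to the small subunit, had a mean of −2.35 (standard error 0.19, adjusted p = 1.56e-10), and Rpl9 one of −2.31 (standard error 0.16, adjusted p = 8.04e-12). M211 held the highest value for each of these 4 genes.

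Other 60S genes with known roles lay in the same range. Rplp0, the base of the stalk that recruits the elongation factors, had a mean of −2.10 (4.29-fold below), and Rpl3, a protein of the peptidyl transferase centre, lay 3.99-fold below. Rpl5 and Rpl11, which carry 5S RNA and can bind Mdm2, had means of −1.92 and −1.79. Rpl10, which joins the 60S subunit last, had a mean of −1.53. Rpl7a and Rpl27a, with the long pyrimidine runs named above, lay at −1.88 and −1.89. The standard errors of these means were 0.13 to 0.18, so that neighbours in this order did not differ beyond their spread. Whether level varied with a pyrimidine run was not tested.

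Among 40S genes, Rpsa, also known as the precursor of the laminin receptor, was lowest. It ranged from −2.96 through −2.47 to −1.66 in TN mice and from −3.12 through −2.57 to −2.36 in HS mice. Its mean was −2.59 (standard error 0.13, 6.01-fold below, adjusted p = 1.06e-13), with overlapping groups and little spread (within-group SD 0.40).

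Rps20, a protein of the 40S head, had a mean of −2.53 (standard error 0.17, adjusted p = 5.93e-12) and ran from −4.05 in HS mouse M256 to −1.27 in TN mouse M211. The Cy5 array of M256 gave −5.61 and its Cy3 array −2.49. Rps7 had a mean of −2.50 (standard error 0.16, adjusted p = 2.43e-12) and Rps18 one of −2.14 (standard error 0.16, adjusted p = 5.25e-11). Rps6, the substrate of the S6 kinases, had a mean of −2.02, and Rps3, which lines the messenger's entry channel, −1.78. The order among Rpsa, Rps20 and Rps7 lies within their standard errors.

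The factors were closer to the reference. Eef1a1, which brings aminoacyl-tRNA to the ribosome, ranged from −1.46 through −0.87 to −0.80 in TN and from −2.43 through −1.19 to −0.65 in HS, with a mean of −1.21 (standard error 0.14, adjusted p = 1.37e-07). The lowest HS value was that of F241, whose Cy5 array gave −0.90 and whose Cy3 array gave −3.95. Eef2, the translocase, ranged from −1.26 through −1.06 to −0.60 in TN and from −1.79 through −1.21 to −0.89 in HS, with a mean of −1.17 (standard error 0.12, adjusted p = 1.76e-08). Both lie below 0 in all 13 mice, yet above the median level of the 52 ribosomal proteins (−1.78).

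Eef2k, the kinase that inactivates Eef2, had a mean of −0.45 (standard error 0.12, adjusted p = 0.00383), and Eif5, which makes eIF2 split its GTP, −0.37 (standard error 0.13, adjusted p = 0.0252). Of these, Eef2k lost its call without centring (−0.37, adjusted p = 0.0881). Eif5 lost it there, on Cy3 arrays alone, and without M251, F222 or F203, with adjusted p from 0.0581 to 0.602. Eif2s1, the subunit of eIF2 phosphorylated under stress, stood at −0.33 (standard error 0.15, adjusted p = 0.0817). Eif2b4, a subunit of the factor that recharges eIF2, stood at −0.19 (standard error 0.14, adjusted p = 0.317). Eif4ebp1, an mTOR target that holds back cap binding, stood at 0.10 (standard error 0.14, adjusted p = 0.645) and at −0.19 on Cy3 arrays alone.

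Among the ribosomal proteins, 5 were not called: Rpl10a, Rpl23a, Fau, Rps26 and Rps3a. Rpl10a, the protein of the L1 stalk, ranged from −0.75 through −0.03 to 1.02 in TN and from −0.71 through −0.35 to 0.58 in HS, with a mean of −0.08 (95% interval −0.39 to 0.23). Rpl23a, beside the exit tunnel where the signal recognition particle docks, had a mean of −0.26 (−0.52 to 0.01), and was called with Cy5 arrays alone (−0.54, adjusted p = 0.0230) and after quantile normalization (−0.23, adjusted p = 0.0487). These intervals reach 0 and also leave out drops as large as the class median.

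Rps3a, which sits near the messenger's exit, ranged from −0.47 through −0.03 to 1.53 in TN and from −0.56 through 0.05 to 0.69 in HS, with a mean of 0.10 (95% interval −0.22 to 0.42). Rps26, which touches the messenger upstream of the start codon, ranged from −0.49 through −0.21 to 1.73 in TN and from −0.40 through −0.24 to 0.76 in HS, with a mean of 0.07 (−0.28 to 0.43). Fau, made as a fusion of a ubiquitin-like protein with a 40S protein, had a mean of −0.20 (−0.52 to 0.12). The sign of the first pair is not settled: with array quality weights Rps3a stood at −0.093 and Rps26 at −0.16.

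Each of Rpl10a, Rpl23a, Fau, Rps26 and Rps3a lay above the median of its own class in 13 of 13 mice. They were picked for not being called lower in these same mice, so that this largely follows from the choice. The next highest ribosomal proteins were Rpl13, at −0.56 (adjusted p = 0.00104), Rps14, at −0.62 (adjusted p = 0.00365), and Rps27l, the paralogue of Rps27 named by the array annotation, at −0.72 (adjusted p = 0.000265). Rpl13 and Rps27l also lay above their class median in 13 of 13 mice, and Rps14 did in 12. Since ribosomal protein genes have many processed pseudogenes and each member rests on 1 rat oligonucleotide, a copy sharing the signal or a poor match to the mouse RNA was not tested.

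Every mouse showed the drop, in different depth. Over the 52 ribosomal proteins the median per mouse ran from −0.80 in TN mouse M211 to −2.44 in HS mouse M256, with an SD over mice of 0.49. On single arrays 45 to 52 of the 52 lay below 0. The 3 arrays of M211 (−0.96 to −0.77) were the highest of all arrays in the series, in both dyes. Arrays of the same mouse differed by a median of 0.44, and by most in F222 (−2.46 to −1.25). The median level over the 52 genes was −1.93 from Cy5 arrays and −1.63 from Cy3 arrays.

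**Figure D2:**
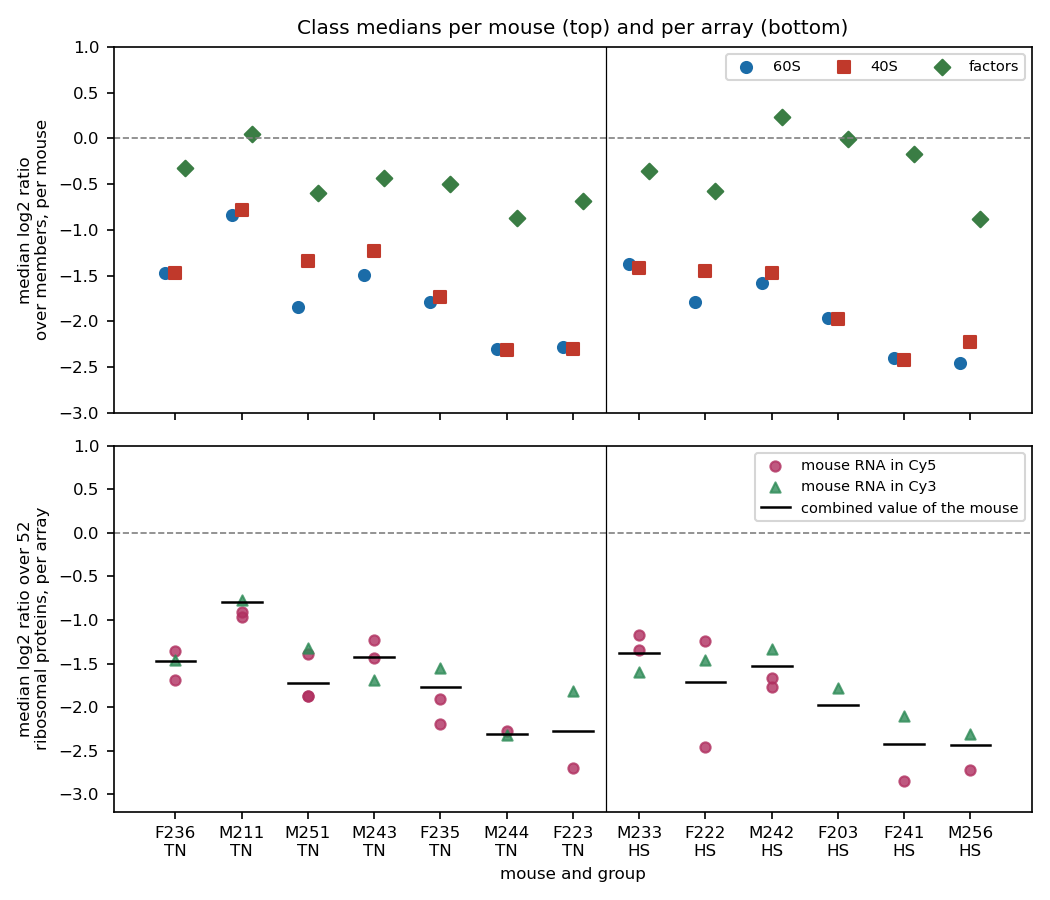
Top: median log2 ratio over the 60S (circles), 40S (squares) and factor (diamonds) members in each mouse, TN left and HS right of the line. Bottom: median over 52 ribosomal proteins on every array (circles, mouse RNA in Cy5; triangles, in Cy3) and the combined value of the mouse (bars), where M211 lies highest and M256 lowest.

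Both subunits moved together from mouse to mouse. The 60S and 40S medians were −0.84 and −0.78 in M211, −1.49 and −1.23 in M243, −2.31 and −2.31 in M244 and −2.40 and −2.42 in F241. They lay farthest apart in M251 (−1.84 and −1.34) and F222 (−1.79 and −1.45). The 60S median was the lower in 7 of 13 mice, with a mean difference from the 40S median of −0.11 ± 0.17 (SD, n = 13). The factor median lay above the ribosomal median in 13 of 13 mice, by 0.85 to 2.26. The median absolute deviation of all features, a measure of spread, was 0.36 to 1.18 per mouse, highest in M244, and its part in these differences between mice was not tested.

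Member by member the same shared movement was visible as a correlation across the 13 mice after group means were taken out. The median correlation was 0.66 between pairs of 60S genes, 0.47 between 40S genes and 0.61 between a 60S and a 40S gene, compared with 0.05 between all features. These are descriptions over 13 mice in which the genes share arrays, and centring and array spread act on all genes of an array together.

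Of the 52 ribosomal proteins, 5 ran the other way: Fau, Rps3a, Rps26, Rpl10a and Rps14 had median correlations with the ribosomal proteins of −0.58 to −0.41, while the other 47 had 0.20 to 0.79. They were singled out after their values had been seen, by a median correlation below 0 in these same mice. Its negative sign therefore follows from the choice. In M244 their median was 1.02 while that of the other 47 was −2.41; in M256 it was 0.58 against −2.49, and in M211 −0.21 against −0.89. Among the other 47 the median correlation was 0.68, and it fell to 0.53 with arrays scaled to equal spread and to 0.34 after quantile normalization. The median correlation of the 5 with the other 47 was −0.50, and with each other 0.62. That with the other 47 shrank to −0.15 with arrays scaled to equal spread, −0.14 after quantile normalization and −0.10 on Cy3 arrays alone, was −0.37 without M244, and stayed at −0.50 on Cy5 arrays alone. Under scaling the sign for Rps14 turned, to 0.09, and on Cy3 arrays alone that for Rps26, to 0.01.

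**Figure D3:**
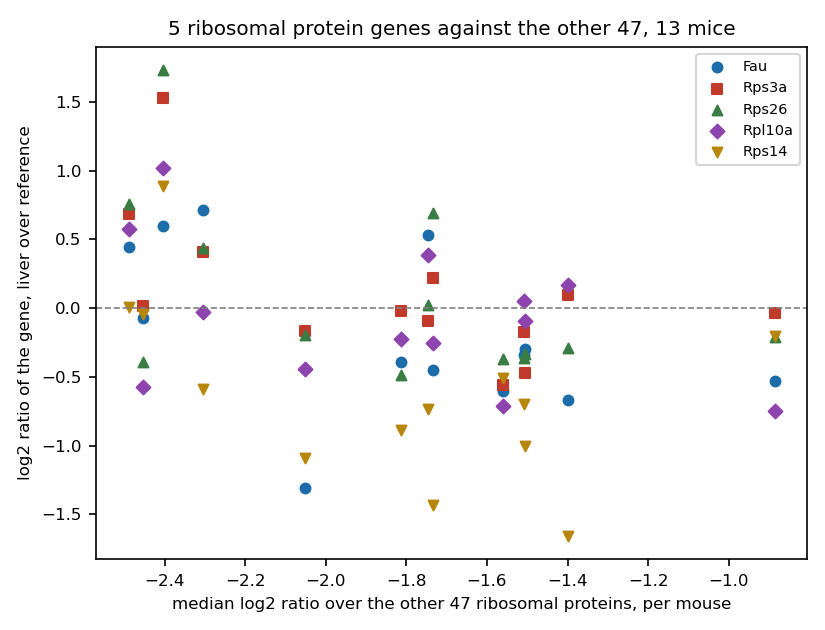
Log2 ratio of Fau, Rps3a, Rps26, Rpl10a and Rps14 (y axis, 1 symbol per gene) against the median log2 ratio of the other 47 ribosomal proteins (x axis) in each of the 13 mice. The highest values, in M244, stand at a median of −2.41 on the x axis, and the point farthest right is M211 at −0.89.

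Genes also differed in how far mice spread around their group means. Rps19, mutated in Diamond-Blackfan anaemia, and Rps13 had the largest within-group SDs, 0.93 and 0.85. Eef2 and its kinase Eef2k had the smallest, 0.29 and 0.30. The median was 0.58 over ribosomal proteins and 0.57 over all features. Arrays of the same mouse disagreed more for Eef2k, with a median range of 1.1 and a largest of 2.74, in F241. For Eef2 these ranges were 0.58 and 1.13.

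The comparison of HS with TN asks whether 2 weeks of heat moved these messengers. No member passed the test. With limma, 0 of 59 members and 0 of all 1856 features (0%) passed the adjusted threshold; at an unadjusted p under 0.05 there were 0 members and 45 features (2.42%). All adjusted p-values of the members were 0.999, and the HS and TN values overlapped for all of them, with 0% of features apart. The 95% interval of the difference lay within 2-fold in either direction for 48 of 59 members (24 of 30 60S, 17 of 22 40S and 7 of 7 factors), and for 75.2% of all features. It lay within 1.5-fold for 0 members and 3.66% of features, so that smaller differences were not measurable with these mice.

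**Figure D4:**
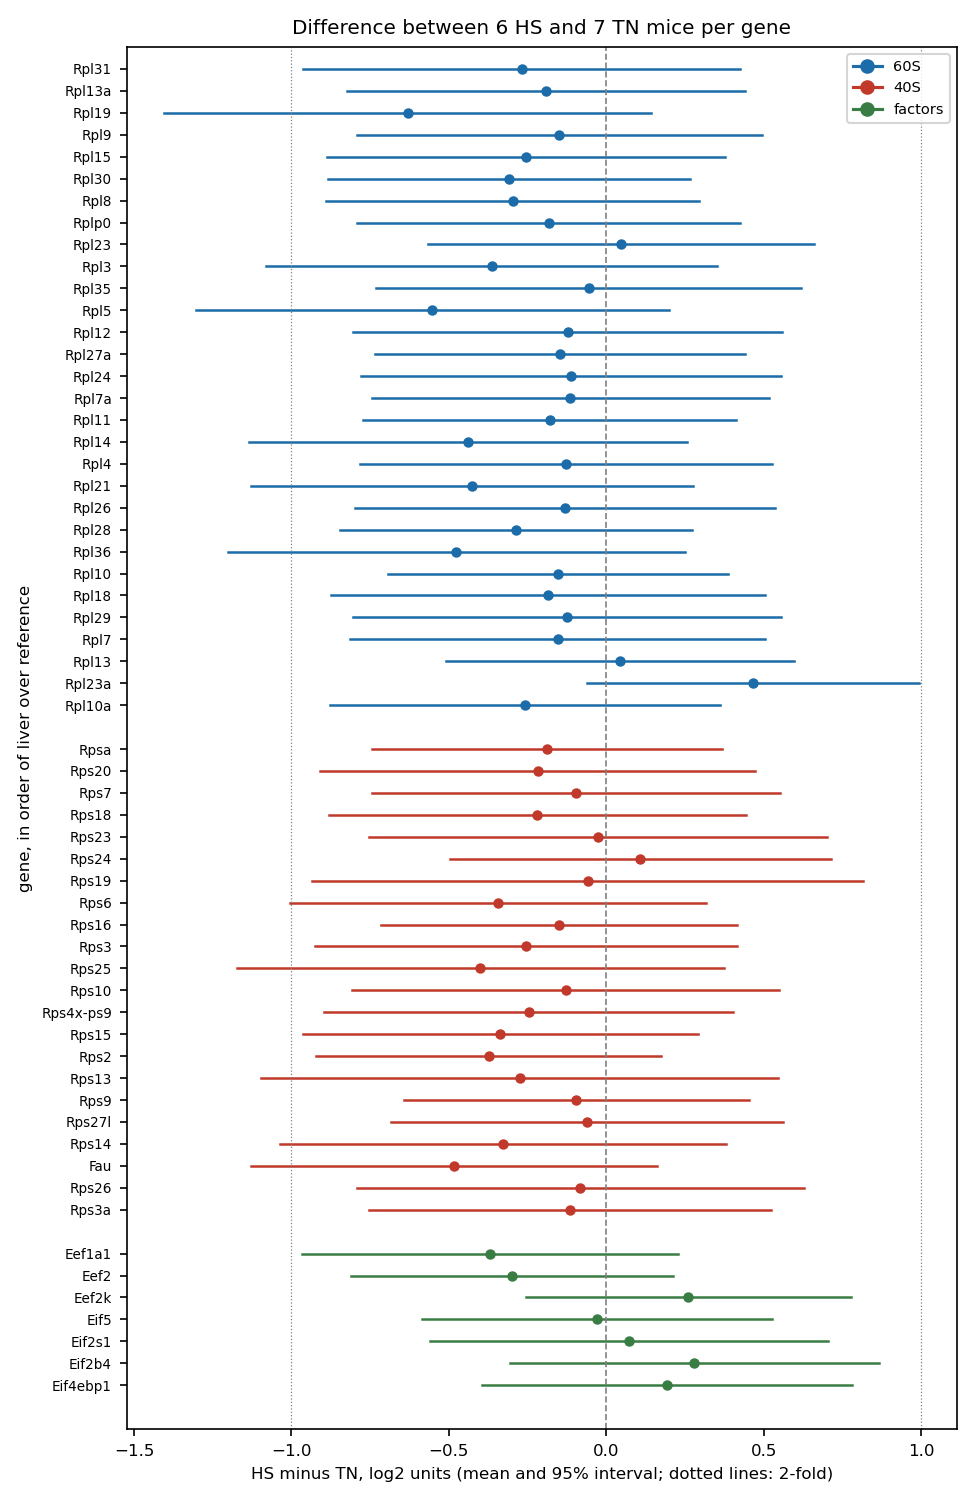
Difference HS minus TN in log2 units (x axis; point and 95% interval, 6 against 7 mice) for each member (y axis, 60S, 40S and factors in order of their level). The interval includes 0 for every member, and dotted lines mark 2-fold.

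Most differences of ribosomal proteins were below 0, and this depended on how the arrays were scaled. The difference was below 0 for 27 of 30 60S genes, 21 of 22 40S genes and 3 of 7 factors. It was below 0 for 51.7% of all features and 41.1% of named genes. Its median was −0.18 over 60S genes, −0.20 over 40S genes and 0.07 over factors, against −0.01 over all features and 0.06 over named genes. With arrays scaled to equal spread the medians were 0.09, 0.04 and 0.07, and 15 in place of 48 ribosomal proteins were below 0; after quantile normalization 30 were. Without M211, the TN mouse with the highest ribosomal medians, the 60S median was −0.03 and 37 were below 0.

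Divided by the median absolute deviation of all features in the same mouse, the ribosomal median was −3.35 ± 1.18 in TN (SD, n = 7) and −3.16 ± 0.30 in HS (SD, n = 6). That deviation was taken on the combined ratios of a mouse, which rest on unequal numbers of arrays. On the plain scale the 60S median per mouse averaged −1.72 ± 0.51 in TN and −1.93 ± 0.44 in HS. The 40S median averaged −1.60 ± 0.56 and −1.83 ± 0.44, and the factor median −0.48 ± 0.29 and −0.29 ± 0.40. For each class the difference between groups is smaller than the SD between mice within a group.

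**Figure D5:**
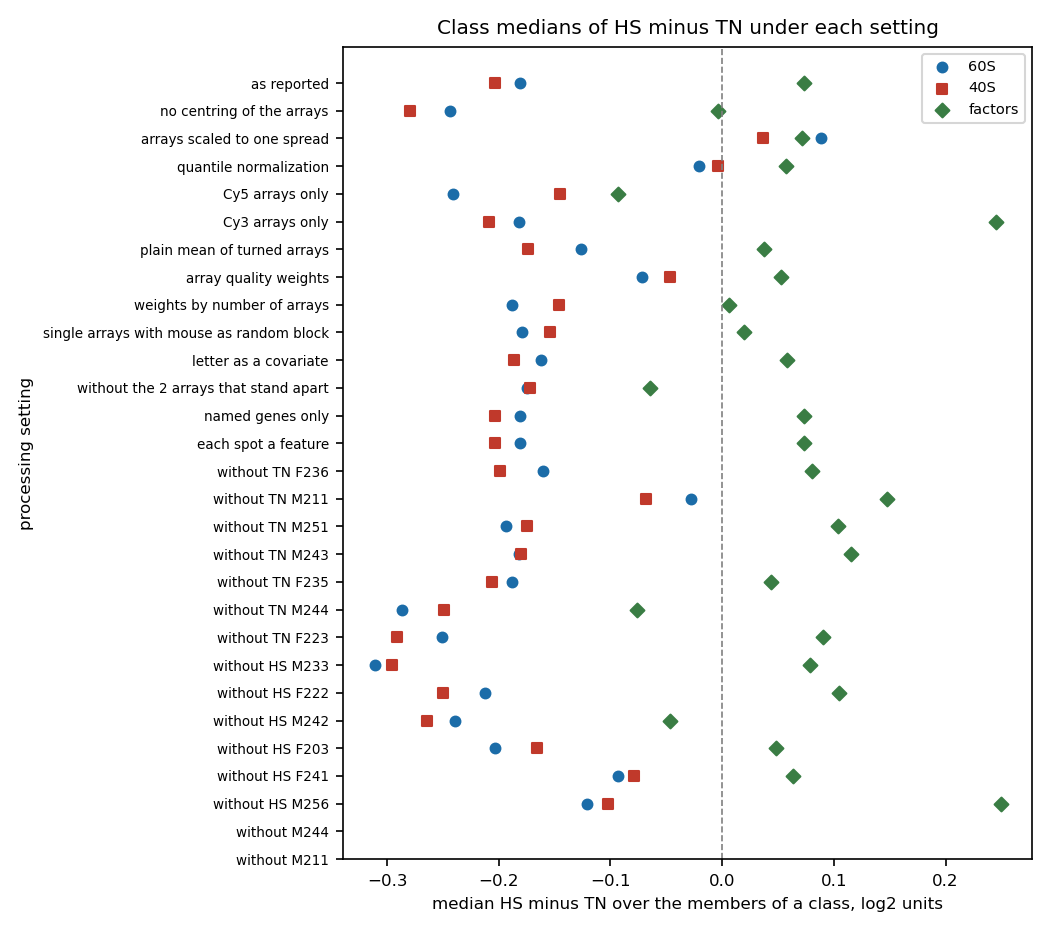
Median HS minus TN over 60S (circles), 40S (squares) and factor (diamonds) members in log2 units (x axis) under each processing setting and with each mouse left out (y axis). The 60S and 40S medians lie below 0 except with arrays scaled to equal spread, at 0.09 and 0.04, and the factor median changes sign between settings.

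The 60S gene of smallest p was Rpl23a, and it lay on the opposite side from most. It ranged from −1.16 through −0.35 to 0.09 in TN mice and from −0.35 through 0.01 to 0.16 in HS mice. The difference was 0.47 (standard error 0.25, 95% interval −0.06 to 0.99), with 6 of 6 HS mice above the TN mean and overlapping groups. Rpl19 ranged from −3.05 through −2.06 to −0.97 in TN and from −4.10 through −2.50 to −1.79 in HS, a difference of −0.63 (standard error 0.37, −1.40 to 0.14). Without M256, which holds the lowest value, it was −0.33.

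Rpl5 differed by −0.55 (standard error 0.36, interval −1.30 to 0.20) and Rpl36 by −0.48 (standard error 0.35, −1.20 to 0.25). With arrays scaled to equal spread both stood at −0.26, and without F241 Rpl36 stood at −0.29. Their groups overlapped over most of their ranges. Besides Rpl23a, the ribosomal proteins above 0 were Rpl23 at 0.05, Rpl13 at 0.04 and Rps24 at 0.11, each with an interval spanning 0.

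Among 40S genes Fau differed by −0.48 (standard error 0.31, interval −1.13 to 0.16), but by −0.08 on Cy5 arrays alone and −0.31 without F203. Rps2, a protein of the messenger's entry channel, ranged from −1.80 through −1.27 to −0.56 in TN and from −2.0 through −1.78 to −1.35 in HS. Its difference was −0.37 (standard error 0.26, −0.92 to 0.17), with 6 of 6 HS mice below the TN mean, and −0.07 with arrays scaled to equal spread and −0.25 without M211. Rps15 differed by −0.34 (standard error 0.30) and Rps6 by −0.34 (standard error 0.32). Without F241 the value for Rps15 was −0.11, and without M256 that for Rps6 was −0.11. Without M211 both stood at −0.22.

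For the factors the differences were below 0 for both elongation factors and near 0 or above for the others, none past the test. Eef1a1 differed by −0.37 (standard error 0.29, interval −0.97 to 0.23) and Eef2 by −0.30 (standard error 0.25, −0.81 to 0.21). With arrays scaled to equal spread Eef1a1 stood at −0.02 and without F241 at −0.19, and after quantile normalization Eef2 stood at −0.06. Eef2k differed by 0.26 (standard error 0.25, −0.26 to 0.78), with 6 of 6 HS mice above the TN mean. It turned to −0.058 without the Cy5 array of M244 and the Cy3 array of F241, the arrays with the largest spread, and stood at 0.16 without M244.

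Eif2b4 differed by 0.28 (standard error 0.28, interval −0.31 to 0.87), with 0.12 when F203, the mouse with 1 array, was left out and 0.43 without M256. Eif4ebp1 differed by 0.19, Eif2s1 by 0.07 and Eif5 by −0.03. For the stress-regulated pair, Eif2s1 and Eif2b4, the intervals exclude a 2-fold difference in either direction. RNA level says nothing of the phosphorylation through which eIF2 and Eef2 are controlled, which was not measured.

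Mice with an identifier in F were compared with those in M without reading the letter as sex, because M242 is female in its own label. With limma 0 of 59 members and 1 of all features (0.0539%) were called, and at an unadjusted p under 0.05 there were 0 members and 62 features (3.34%). The difference F minus M was below 0 for 52 of 59 members, against 46.1% of all features and 36.6% of named genes. That count was 49 with arrays scaled to equal spread, 42 without M211, the M mouse with the highest ribosomal medians, and 35 on Cy3 arrays alone. The smallest p-values belonged to Rpl7 (−0.60, 95% interval −1.25 to 0.05, adjusted p = 0.999) and Rpl5 (−0.59, −1.33 to 0.16, adjusted p = 0.999).

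The test of whether the difference between HS and TN differed between F and M mice called 0 members and 0 features (0%). At an unadjusted p under 0.05 there were 0 members and 22 features (1.19%). The smallest p-values were for Rpl3, at −1.13 (standard error 0.69, interval −2.56 to 0.30), and Rpl13, at −0.85 (standard error 0.55). With 3 or 4 mice in each cell these intervals are wide: the interval stayed within 2-fold for 0 members and 0% of features.

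Other genes of the translation system were scarce on the array, and the lists of related genes had 26 measured. Of these 14 were called lower than the reference and 3 higher, against 24.4% and 24.1% of all features. Ribosome biogenesis had 7 measured genes, 4 of them called lower: the nucleolar proteins Ncl (−1.77, standard error 0.18) and Npm1 (−1.25, 0.15), Dkc1, of the pseudouridine synthase (−0.79, 0.13), and Myc, the transcription factor that drives ribosome production (−1.19, 0.19). Of the 6 measured TOP and ribosome-bound genes 4 were lower, among them Rack1, a scaffold protein of the 40S head (−2.17, 0.20), Hnrnpa1 (−1.76, 0.16) and Tpt1 (−1.55, 0.15). Of that list Sod1, an antioxidant enzyme, was higher (0.97, 0.17).

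Lists of protein export and signalling were read in the same way. Of 8 measured genes of targeting to the endoplasmic reticulum 6 were called lower, against 24.4% of all features. Sec61a1, the channel of the translocon, was called higher (1.06, standard error 0.18). Of the mTOR list only Rheb (−0.19, not called) and Prkaa2, an AMP-activated kinase subunit (0.60, 0.18, called higher), were measured. The 3 mitochondrial translation genes were not called, and for tRNA synthetases and release factors no gene was measured.

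For heat, 0 of these 26 genes was called and 0 passed at an unadjusted p under 0.05, against 0% and 2.42% of all features. Their median difference was −0.14, with 10 above 0. The difference was below 0 for 51.7% of all features and 41.1% of named genes. The smallest p-values belonged to Nap1l1 (−0.50, standard error 0.37), Nip7, a ribosome assembly factor (0.57, standard error 0.36), Ncl (−0.44, standard error 0.36) and Polr1b, a subunit of RNA polymerase I (0.34, standard error 0.28). Ncl was below the TN mean in 6 of 6 HS mice.

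Markers of liver cells were read beside these results. Of 35 measured genes for plasma proteins made by hepatocytes 27 were called higher than the reference and 1 lower, against 24.1% and 24.4% of all features. The highest was Alb at 4.96 (standard error 0.19), and the gene called lower was Apoc1 at −0.76 (standard error 0.15). On every array 25 to 32 of the 35 lay above 0. The median over the 35 genes per mouse was 1.43 to 2.15 in TN and 1.45 to 2.09 in HS. For heat, only Apoa1 had an unadjusted p under 0.05 (−0.93, standard error 0.41, limma p = 0.0328, adjusted p = 0.999). Of the macrophage list 4 were measured, with medians of −1.15 to 0.00 in TN and −0.56 to −0.09 in HS. Of these, 3 of 4 had a positive difference, while 51.7% of all features and 41.1% of named genes had a negative one. Of the mesenchymal list 3 were measured, with Vim at −4.03, Sparc at −2.59 and Timp1 at 0.058 (adjusted p = 0.839). Nkg7 of the lymphocyte list (1.30), Hba-a1 of the red blood cell list (1.24) and Prss1 of the pancreas and fat list (0.35) were called higher. Cfd of the latter list (0.30) and Krt8 of the bile duct list (0.10) were not called, and no endothelial gene was measured. In whole tissue, fewer cells of a type and less RNA per cell cannot be told apart, and the part of cell makeup in the ribosomal values was not tested.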

How the data were processed

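The values deposited by the authors are log ratios of Cy5 over Cy3, 1 per spot and array, taken as log2 values. How the authors corrected background, normalized or filtered spots, and which log base they took, is not given in the sources used here; natural logarithms cannot be told apart. They had no intensities with them here, so signal over background is unknown and the number of mice limits precision. Each array was centred on its median and spots of a gene were averaged. Per feature, a least-squares fit on 13 mouse terms, turned by dye, and a dye term gave 1 ratio per mouse. F203 had 1 array. Mice were compared with limma 3.58.1 in R 4.3.3 (lmFit, eBayes, two-sided, at least 4 mice a group, Benjamini-Hochberg over 1856 features, threshold 0.05). A level is the mean of both group means. The procedure was also run on simulated data with noise independent between genes. The measured genes share movement across mice, so that run does not show how the procedure performs on these data. Members, lists and the rule for named genes (smallest p, lowest and highest level, largest and smallest spread in each class) were chosen with earlier results of these data known. The likeness of 5 genes was examined after seeing the data.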

Additional observations from a re-analysis of the deposited data

Results flagged for a closer look

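A value far from the rest was looked for in 64 sets, each a class median or named gene in TN or HS mice. Of these sets 5 had such a value. Chance marks about 1 in 20 independent sets. That rate does not apply here, because the genes move together and were named in part for extreme values in these mice. In TN mouse M211 the log2 ratio of Rpl13a was −1.07 (nearest other TN mouse −2.33), that of Rpl9 was −0.96 (nearest −2.24) and that of Rps20 was −1.27 (nearest −2.28). All are the highest TN value of a gene that is among the lowest against the reference, in the mouse whose arrays had the highest ribosomal medians. In HS mouse M256 Rps20 stood at −4.05 (nearest −2.62), with −5.61 on its Cy5 array and −2.49 on its Cy3 array. In TN mouse M244, which had the array of largest spread, Rps26 stood at 1.73 (nearest 0.44). Its Cy5 array gave 2.84 and its Cy3 array 0.62, so that these 2 values lean on 1 array each.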

How the results depend on the processing

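Every alternative, 13 settings and 13 fits without each mouse in turn, left 0 members called for heat, letter and interaction. Members called against the reference numbered 48 to 52. Ribosomal proteins below 0 for HS minus TN, 48 as reported, were 15 with arrays scaled to equal spread and 30 after quantile normalization; leaving out a mouse gave 37 (without M211) to 49. Of 312 recomputed differences of 12 named genes 311 kept their direction and side of the threshold, the exception being Eef2k at −0.058 without the 2 arrays of largest spread. Of 468 recomputed levels of 18 named genes 453 did, with 7 turning sign: Rpl10a at 0.0032 with no centring and 0.072 on Cy3 arrays, Eif4ebp1 at −0.19 on Cy3 arrays, Rps3a at −0.093 and Rps26 at −0.16 with array quality weights, and Rps26 at −0.049 without M244 and −0.0045 without M256, where leaving out a mouse gave −0.049 to 0.13. Another 6 lost their call (Eif5 under 5 alternatives, Eef2k under 1) and 2 gained it (Rpl23a). The cause was not tested. Members below 0 for F minus M numbered 35 to 55 in place of 52. The median of 60S differences ran from −0.31 to −0.03 with a mouse left out, that of 40S from −0.30 to −0.07 and that of factors from −0.08 to 0.25. No paired analysis was possible because the groups share no replicate numbers. Dim spots could not be filtered.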
